A study of Mus musculus with 2 samples.

Results

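Mir126a, Mir126b, Mir221 and Mir222 are 4 of the 2202 mouse microRNA genes counted in heart tissue, and they were chosen by their gene symbols. The first pair occupies opposite strands of a locus inside Egfl7, a gene of endothelial cells, and the second pair forms a small cluster on the X chromosome. The counts bear on how abundant each gene was, which strand of the Mir126 locus was read, and how far the libraries differed. Both libraries came from the heart of B6CASTF1/J female mice, hybrids of the C57BL/6J and CAST/EiJ strains, aged 2 months, and the labels name no treatment or contrasting group. In the labels they are biological replicates from differently numbered females, but the labels attach the same donor label to both, so separate animals are a reading of the labels, and a difference between the libraries may be partly technical. Heart tissue holds endothelium beside muscle, fibroblasts and blood, and the label of these genes as endothelial comes from prior knowledge, not from these counts.

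A microRNA gene is transcribed as a hairpin, from which enzymes cut a short mature strand that guides the silencing complex to messenger RNAs through its seed, the bases 2 to 8 from its 5′ end. miR-126 is known as a microRNA enriched in endothelial cells, where it supports signalling by vascular growth factors through repression of Spred1 and Pik3r2, and it is required for vascular integrity. miR-221 and miR-222 are known regulators of Kit and of the cell cycle inhibitor Cdkn1b, described in endothelium but also in smooth muscle and blood cells, so they are less specific to the vessel lining than miR-126.

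The mature strands listed by RefSeq for the 4 genes are shown first, with the seed in capitals, because the seeds separate the genes into a shared group and single ones. All sequences are written 5′ to 3′ from RefSeq's table on GRCm38.p6, the same assembly as mm10, in which all 4 hairpins matched by symbol. That list gave no 5p strand for Mir126a or Mir222, which does not mean that those hairpins yield none.
miR-126a-3p: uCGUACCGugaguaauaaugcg
miR-126b-5p: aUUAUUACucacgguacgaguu
miR-126b-3p: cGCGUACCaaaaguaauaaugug
miR-221-3p: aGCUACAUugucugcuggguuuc
miR-222-3p: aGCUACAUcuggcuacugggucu
miR-221-5p: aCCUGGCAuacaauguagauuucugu
The 3p strands of Mir221 and Mir222 have the same seed. They are identical over their 8 opening bases and, laid side by side without gaps, at 11 of 23 positions (47.8%). Among the other mature strands in the table, 1 more, miR-1928, carries that seed. The seeds of miR-126a-3p, miR-126b-5p, miR-126b-3p and miR-221-5p occur in no other mature strand listed. The counts are per gene, so they do not say which arm of a hairpin, or which parental allele, the reads came from.

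The hairpins of the Mir126 locus are shown next, with the listed mature strands in capitals, because their overlap decides how reads were counted. Mir126a lies on the plus strand at chr2:26591357-26591429 and Mir126b on the minus strand at chr2:26591363-26591420 (mm10).
Mir126a: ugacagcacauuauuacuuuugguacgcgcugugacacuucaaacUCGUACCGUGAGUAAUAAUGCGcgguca
Mir126b: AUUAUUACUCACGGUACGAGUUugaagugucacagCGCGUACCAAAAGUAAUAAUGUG
Mir126b, 58 bases long, is the reverse complement of bases 7 to 64 of the 73-base Mir126a hairpin. Only 6 bases before and 9 bases after it belong to Mir126a alone. miR-126b-5p lies opposite miR-126a-3p over 19 bases, and miR-126b-3p lies opposite bases 7 to 29 of the Mir126a hairpin. In GENCODE M21 the locus is inside Egfl7, on the same strand as Mir126a, where an exon of 1 of 19 annotated transcripts overlaps it. It is also in an intron of Gm20532, a longer protein-coding gene on that strand.

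**Figure D1:**
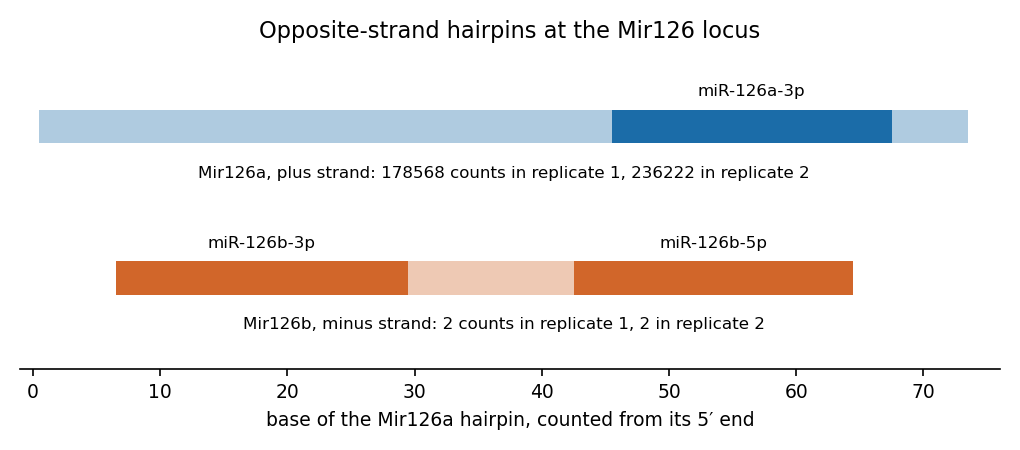
Map of the Mir126 locus, with position along the Mir126a hairpin in bases on the x axis. Pale bars are the hairpins and dark bars the mature strands listed by RefSeq, with the own-strand counts written below each gene: 178568 and 236222 for Mir126a against 2 and 2 for Mir126b.

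Each library was counted as reads of under 30 bases per microRNA gene, on the gene's own strand, on the opposite strand, and on either. Reads in replicate 1 numbered 8069273 and in replicate 2 numbered 7995058, of which 2424441 and 2770301 were assigned to a microRNA gene on its own strand. Levels are given as CPM, counts scaled to an own-strand total of 1000000, so 10 counts correspond to 4.12 CPM in replicate 1 and 3.61 CPM in replicate 2. A read stands for a whole short RNA, so counts were not divided by gene length. How well each sequence is captured by the library preparation was not tested and bears on every comparison between genes. Intervals are exact 95% ranges and cover counting error only.

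Mir126a was among the most abundant microRNA genes of the heart, Mir221 was intermediate, Mir222 low and Mir126b all but unread. Mir126a had 178568 counts in replicate 1 and 236222 in replicate 2, or 73653 and 85269 CPM, with a mean of 79461 ± 8214 CPM (SD, n = 2). It ranked 4 of 2202 genes in each library and alone made up 7.37% and 8.53% of counts. Rank and share hold among reads assigned to 1 gene, since reads that mapped to several places, 49.5% of replicate 1 and 42.7% of replicate 2, were counted for none, and microRNAs encoded by several copies may be underestimated. In a whole tissue, fewer cells of a type and less RNA per cell cannot be told apart, so this level does not give the number of endothelial cells.

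Mir221 had 7772 counts in replicate 1 and 7790 in replicate 2, or 3206 and 2812 CPM, with a mean of 3009 ± 278 CPM (SD, n = 2). It ranked 40 and 39 in the libraries. Mir222, its neighbour with the same seed, had 357 and 224 counts, or 147 and 80.9 CPM, with a mean of 114 ± 46.9 CPM (SD, n = 2), and ranked 135 and 146. The counts of Mir221 were nearly equal in the libraries, while those of Mir222 were higher in replicate 1 and those of Mir126a in replicate 2.

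Mir126b had 2 counts in each library, which is 0.825 CPM (exact interval 0.0999 to 2.98) for replicate 1 and 0.722 CPM (0.0874 to 2.61) for replicate 2. It was the only one of the 4 genes below the filter of 10 counts in both libraries, which 306 genes passed. The order Mir126a, Mir221, Mir222, Mir126b was the same in both libraries, and the ranges of neighbouring genes in that order did not overlap. The 4 genes summed to 7.70% (7.67 to 7.73) and 8.82% (8.78 to 8.85) of counts, nearly all of it from Mir126a.

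**Figure D2:**
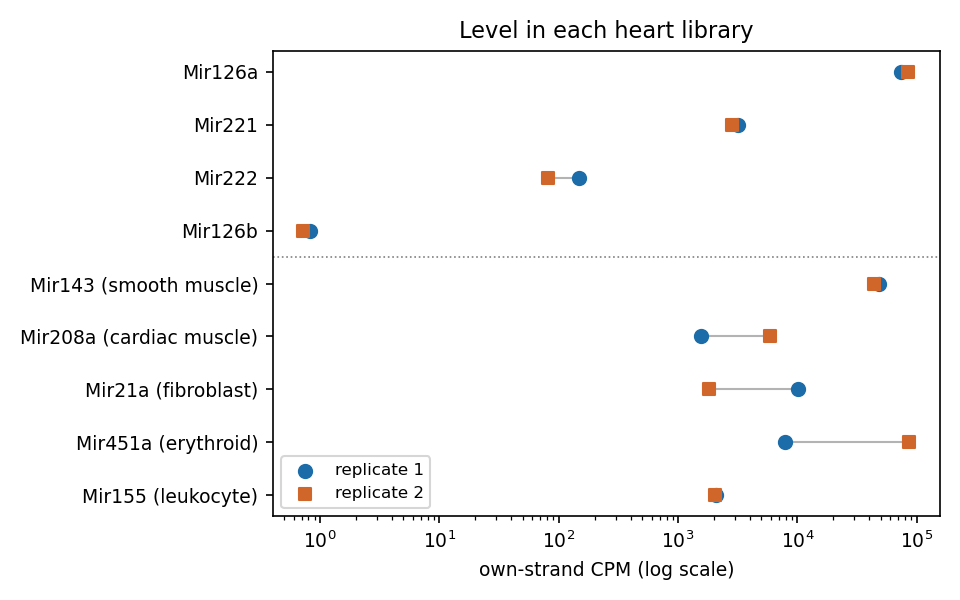
Own-strand CPM on a log axis in replicate 1 (circles) and replicate 2 (squares) for the 4 genes, and below the dotted line for the most abundant gene of each other cell type list. Mir126a at 73653 and 85269 CPM lies above the others of the 4, and Mir126b below 1 CPM in both libraries.

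Ratios within a library do not depend on its total. Mir126a exceeded Mir221 by 23.0-fold in replicate 1 (22.5 to 23.5) and by 30.3-fold in replicate 2 (29.6 to 31.0). The ratio was 1.32 times as large in replicate 2 (1.28 to 1.36). Mir126a exceeded Mir222 by 500.2-fold in replicate 1 (451 to 556) and by 1055-fold in replicate 2 (925 to 1208). Mir126a thus exceeded both X-linked genes in each library, and the size of the step differed between them by more than counting error.

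Mir221 and Mir222 lie on the minus strand of the X chromosome at chrX:19146294-19146388 and chrX:19146893-19146971 (mm10), with 504 bases between the hairpins. No other gene of the annotation overlaps them, and the nearest gene that is not a microRNA is the noncoding Gm14636 on the same strand, 10009 bases from Mir222. Their hairpins are printed here, with the listed mature strands in capitals, because they are neighbours with 1 seed that were read at very different levels.
Mir221: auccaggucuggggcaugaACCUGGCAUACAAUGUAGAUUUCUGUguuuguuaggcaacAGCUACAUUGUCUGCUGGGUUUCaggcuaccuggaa
Mir222: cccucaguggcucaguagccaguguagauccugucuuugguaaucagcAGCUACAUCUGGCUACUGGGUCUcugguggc
Mir221 was read 21.8 times as often as Mir222 in replicate 1 (19.6 to 24.3) and 34.8 times as often in replicate 2 (30.4 to 39.9), with a geometric mean of 27.5. The ratio was 1.60 times as large in replicate 2 (1.34 to 1.90), so the pair did not keep a fixed proportion.

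Unequal levels within a cluster were also found at other loci. Among 88 adjacent pairs of genes on the same strand, at most 10000 bases apart and each with at least 10 counts in both libraries, the median fold between the levels of a pair was 4.78. Consecutive pairs of a longer cluster share a gene, so the pairs are not independent and do not each stand for a separate locus. A larger fold than that of Mir221 and Mir222 was found in 16 of the pairs. Of these, 10 hold a gene that shares 20 bases with another hairpin and whose level is uncertain. In the 52 pairs without such a gene, a split chosen after seeing the data, 6 had a larger fold and the median was 3.93. The log2 ratios of replicate 2 over replicate 1 of Mir221 and Mir222 differed by 0.68, against a median difference of 0.63 over all pairs, and 40 pairs differed by more. The pair's levels were thus further apart than those of the median pair, and its shift between libraries was close to the median.

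**Figure D3:**
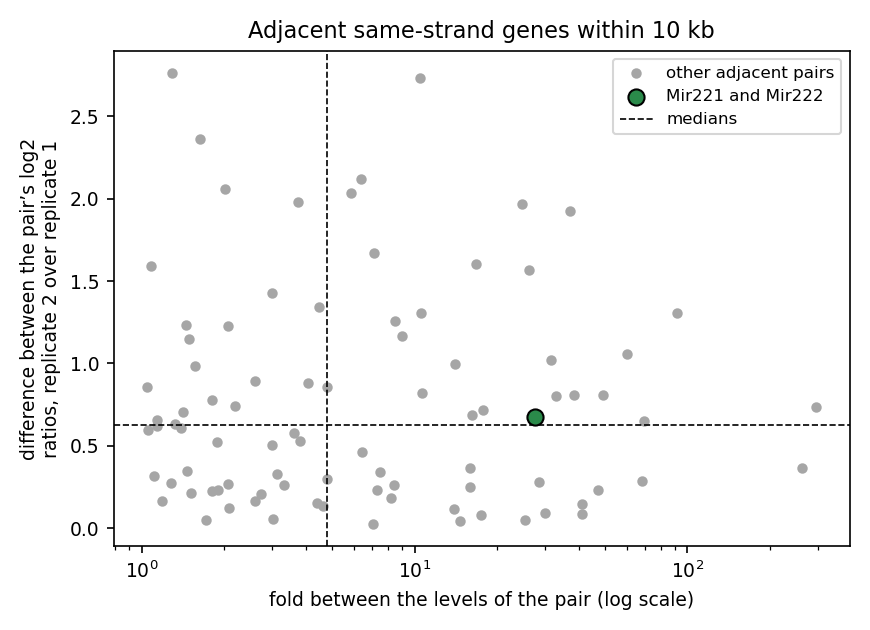
Each point is 1 of 88 pairs of adjacent same-strand microRNA genes, with the fold between their levels on the log x axis and the difference between their log2 library ratios on the y axis. Mir221 and Mir222 (green) lie at 27.5-fold and 0.68, to the right of the median fold of 4.78 and near the median difference of 0.63 (dashed lines).

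No hairpin of the 4 genes shares an exact stretch of 20 bases with that of another counted gene. Shorter shared stretches were not searched. Predicted folding energies per base were -0.43 kcal/mol for Mir126a, -0.33 for Mir126b, -0.45 for Mir221 and -0.52 for Mir222, against a median of -0.37 over 2202 hairpins. Mir222, with the most stable predicted fold per base, was the less abundant gene of its cluster, and Mir126b, the only one weaker than the median, was read 2 times per library.

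Reads at the Mir126 locus came almost wholly from the strand of Mir126a. In replicate 1 the gene had 178568 own-strand and 2 opposite-strand counts, and in replicate 2 it had 236222 and 2. The 2 opposite-strand counts are equal in number to the own-strand counts of Mir126b in each library. Mir126b thus made up 0.00112% (exact interval 0.000136 to 0.00405) of locus counts in replicate 1, and for replicate 2 the share was 0.000847% (0.000103 to 0.00306). Mir221 had no opposite-strand count in either library, and Mir222 had 1 in replicate 1 and none in replicate 2.

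The bookkeeping of the strands shows how far the level of Mir126a rests on them. Read from the row of Mir126b, 178557 reads lay on the opposite strand in replicate 1 and 236213 in replicate 2. These are 11 and 9 fewer than the own-strand counts of Mir126a, and 11 and 9 are also the counts of Mir126a when strand is ignored. When strand is ignored, a read that overlaps both genes is ambiguous and is credited to neither. The 178557 such reads of Mir126a were 34.4% of the 518508 ambiguous reads of replicate 1, and 236213 were 29.3% of 806523 in replicate 2. Without strand, Mir126a would therefore stand, on the same totals, at 4.54 CPM (replicate 1) and 3.25 CPM (replicate 2), below Mir222, whereas Mir221 kept its 7772 and 7790 counts.

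The table holds 32 pairs of overlapping microRNA genes on opposite strands, 18 of them with at least 100 counts over both libraries on the more abundant strand. Reads of the lesser strand were absent in 11 of the 18, including Mir451b opposite the erythroid Mir451a and Mir142b opposite the leukocyte Mir142. Mir126b, with 0.000964% of its locus over both libraries, was exceeded by 6 of the lesser strands. The highest was Mir3074-1 at 17.8% of its locus with Mir24-1, a gene that shares 20 bases with Mir24-2, so its share is uncertain. Mir126b thus had the smallest share of the lesser strands that had counts. Its locus held 414790 counts of Mir126a, far more than most loci where the lesser strand was absent. At most of those loci a share as small as that of Mir126b could leave no read.

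For the comparison of the libraries, each gene's counts were tested against the own-strand totals (exact binomial, two-sided), with Benjamini-Hochberg adjustment over the 306 genes with at least 10 counts in both. The test asks whether 2 libraries differ beyond counting error, and no condition is compared. All 3 of the members tested passed, against 61.1% of all genes tested. Only Mir222 also differed by 1.5-fold or more, against 36.6% of all genes tested, so 1 of 3 is near the background.

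Mir126a was 1.16-fold higher in replicate 2 (1.15 to 1.16), a log2 ratio of 0.21 with an adjusted p by the binomial test of at most 1e-300, the smallest value written. On the scale of own-strand totals, 226 of the 306 genes differed by more than Mir126a in either direction. The erythroid list was also higher: all 3 of its genes passed the test upward in replicate 2, against 19.6% of all genes tested. The list was chosen with earlier results of these data known, so this is a description and not a test of the list. Their summed share rose from 1.15% in replicate 1 to 9.56% in replicate 2. The rises were unequal, from 1.12-fold to 11.1-fold, and 2 of the 3 reached 1.5-fold, against 11.1% of all genes tested. With those genes left out of the library totals the log2 ratio of Mir126a was 0.34, so the difference was larger without them. The log2 ratio was also larger on other scales, at 0.43 with TMM factors, 0.40 with DESeq2 factors and 0.42 with all reads as the total.

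Mir221 was 1.14-fold lower in replicate 2 (1.10 to 1.18), a log2 ratio of -0.19 with an adjusted p of 1.11e-15 by the binomial test. The median gene also had a log2 ratio of -0.19, and on the scale of TMM, DESeq2 or all reads the ratio of Mir221 was 0.03, 0.00 or 0.02 with adjusted p of 0.27, 0.98 and 0.58. Over all alternatives its adjusted p ran from 7.84e-16 to 0.98, and no direction held for it. Mir221 therefore tracked the median gene.

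Mir222 was 1.82-fold lower in replicate 2 (1.54 to 2.16), a log2 ratio of -0.86 with an adjusted p of 3.5e-12 by the binomial test. Its ratio was at least 1.5-fold lower under every scaling tried, with log2 ratios from -0.86 to -0.65 and adjusted p from 2.46e-12 to 3.21e-07. Of the 306 genes, 77 differed by more in either direction. Most tested genes of the leukocyte, fibroblast, smooth muscle and cardiac muscle lists were also called lower in replicate 2, against 41.5% of all genes tested. Of the 5 leukocyte genes 4 were called lower and none higher (1 higher with TMM or DESeq2 factors), and their summed share was 0.706% in replicate 1 and 0.519% in replicate 2. Of the 3 detected fibroblast genes 2 were called lower under each of these scalings, with a summed share of 1.12% and 0.252% over the list. Calls that also reached 1.5-fold fell from 3 to 1 leukocyte gene and from 2 to 1 fibroblast gene with TMM or DESeq2 factors. Of all 306 genes tested, 78 were called lower at 1.5-fold on own-strand totals (25.5%), 46 with TMM and 49 with DESeq2 factors. Without the fold rule, 84 were called lower with TMM and 88 with DESeq2 factors. Both smooth muscle genes were called lower (1 lower and 1 higher with TMM or DESeq2 factors). Of the 4 detected cardiac muscle genes 3 were called lower and 1 higher, and other scalings were not tried for this list. The higher gene, Mir208a, was the most abundant of the list and was 3.80-fold higher in replicate 2. The summed share of the list thus went the other way, from 0.605% in replicate 1 to 0.858% in replicate 2. The part of these cell types in the result for Mir222 was not tested. The edgeR common dispersion over the same genes gave a biological coefficient of variation of 0.383 between the libraries.

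**Figure D4:**
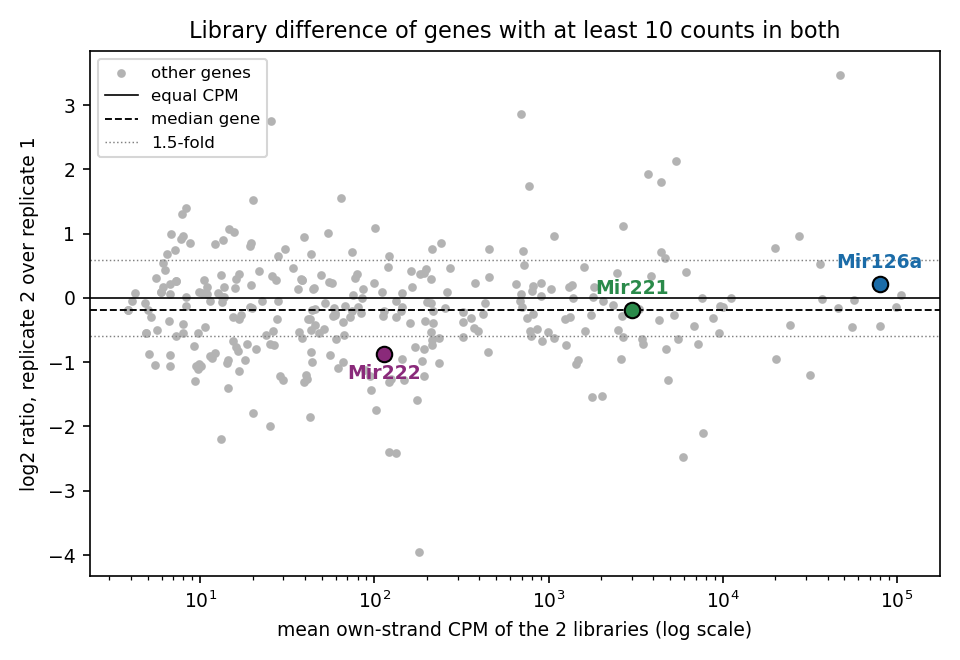
Log2 ratio of replicate 2 over replicate 1 (y axis) against mean CPM on a log axis for the 306 genes with at least 10 counts in both libraries. Mir126a lies at 0.21, Mir221 at -0.19 on the dashed line of the median gene, and Mir222 at -0.86, beyond the dotted line of 1.5-fold.

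The genes of most similar level, by the distance of log2(CPM + 1) over the 2 libraries, differed for each member. Nearest to Mir126a were Mirlet7g (79847 ± 16983 CPM, n = 2), Mir378a (98897 ± 6630 CPM) and Mirlet7i (105694 ± 2237 CPM). Mir378a shares 20 bases with Mir378c, so its level is uncertain. Nearest to Mir221 were Mir17 (3324 ± 269 CPM), Mir130a (2655 ± 369 CPM) and Mir106b (3438 ± 1066 CPM). Nearest to Mir222 were Mir148a (124 ± 71.8 CPM), Mir152 (122 ± 73.3 CPM) and Mir542 (112 ± 15.7 CPM). With 2 libraries this likeness is mostly one of level.

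Other microRNA genes known from blood vessel growth and endothelial function gave a mixed picture between the libraries. Of 26 such genes 22 passed the count filter, and the 26 summed to 10.1% and 11.1% of counts in replicates 1 and 2. The binomial test called 6 of them higher and 10 lower in replicate 2, with 6 not called, against 19.6% higher and 41.5% lower of all genes tested. Their median log2 ratio was -0.08 beside -0.19 for all genes. With TMM 11 were higher and 7 lower, and with DESeq2 factors 10 and 8, with a median of 0.14 and 0.11, so no direction held for the list. Among all 306 genes tested, 97 were higher and 84 lower with TMM, and 94 and 88 with DESeq2 factors. The median of all genes on these scales was 0.03 and 0.00.

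The most abundant of them were Mir23b (37338 ± 185 CPM), Mir23a (36224 ± 9379 CPM), Mir27b (4827 ± 2826 CPM) and Mir92-1 (4652 ± 1393 CPM). All 4 share 20 bases with another hairpin, as do 10 of the 26 genes, so some of their reads may be uncounted and their levels are uncertain. Mir126a stood above each of them. By the mean of the 2 libraries, Mir221 stood between Mir17 of the miR-17-92 polycistron and Mir34a, a microRNA induced by p53 (2343 ± 124 CPM), and Mir222 between Mir24-1 (121 ± 38.1 CPM) and Mir503 (65.7 ± 30.7 CPM). In replicate 1 alone Mir222 at 147 CPM was above Mir24-1 at 94.5 CPM, and Mir24-1 shares bases with Mir24-2. Mir216a, from a pancreatic cluster, had no count in either library, where the limit of 3 counts set for a count of 0, which is not an exact interval, lies at 1.24 CPM (replicate 1) and 1.08 CPM (replicate 2).

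Shares of lists for the other cell types of the heart are given beside the 4 genes, and hold only among reads assigned to 1 gene. Smooth muscle genes (Mir143 and Mir145a, both detected) summed to 5.07% and 4.45% of counts in replicates 1 and 2, with Mir143 at 48716 and 43522 CPM. Cardiac muscle genes (4 of 7 detected) summed to 0.605% and 0.858%, and the fibroblast and leukocyte shares are those given beside Mir222. Mir221 and Mir222 are known from smooth muscle and leukocytes as well as endothelium, and part of their counts may come from any of these cells, which was not tested. All Mir1a, Mir133a and Mir199 genes share bases with another hairpin, so the cardiac muscle and fibroblast shares are uncertain.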

How the data were processed

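Small RNA from 2 heart libraries was counted per microRNA gene. Reads were placed on mm10 per the labels, and the deposited text names GENCODE M21. Aligner, counter and trimming: not given in the sources used here. As deposited, values are raw, unnormalized counts in 3 columns, whose strands were read from their values. Rows that name no gene held 70.0% and 65.3% of all reads of replicates 1 and 2 and were left out. Most of these reads mapped to several places or to none.

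The members and gene lists were chosen with earlier results of these data known. CPM were computed from own-strand counts and their library total. Genes with at least 10 counts in both libraries were tested by an exact binomial test (adjusted p under 0.05); 187 genes differed, so the tables are not copies. The test was tried on simulated counts with counting error only, so its behaviour at the wider spread between these libraries was not tested. The p-values measure counting error between 2 libraries. edgeR 4.0.16 gave TMM factors and the dispersion, DESeq2 1.42.0 size factors and RNAfold 2.7.2 folding energies, with R 4.3.3, Python 3.11.15, numpy 2.4.6, scipy 1.17.1, pandas 2.3.3 and matplotlib 3.10.9. Named genes are the 4 members, the 3 genes nearest in level to each tested member, the 4 most abundant vascular genes and the most abundant gene of each cell type list. Mir34a, Mir24-1, Mir503, Mir216a, Mir145a, Mir451b, Mir142b, Mir142 and Mir3074-1 were added after their values were seen, and genes named for a shared seed or bases by sequence. Alternatives were other scalings, strand columns, filters and each library alone.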

Additional observations from a re-analysis of the deposited data

How the results depend on the processing

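With all reads of the library as the total, levels fell to 25838 CPM for Mir126a, 969 for Mir221, 36.1 for Mir222 and 0.249 for Mir126b, by construction. In the column that ignores strand, Mir126a stood at 5.18 CPM of that column's smaller total, Mir126b at 0 and Mir221 at 4022, and the ratios of Mir126a to Mir221 and Mir222 turned to 0.00128 and 0.0351, because reads over both strands' genes are credited to none. Mir126a then had 9 counts in replicate 2 and could not be tested. The log2 ratio of Mir221 turned to 0.029 with TMM, 0.00 (0.0017) with DESeq2 factors and 0.017 with all reads, and with strand ignored it was -0.04 with an adjusted binomial p of 0.13. Calls and directions for Mir222 held under all 7 alternatives, and for Mir126a under the 6 in which it was tested. Each library alone gave 73653 to 85269 CPM for Mir126a, 2812 to 3206 for Mir221 and 80.9 to 147 for Mir222, and the ratio of Mir126a to Mir222 ran from 500.2 to 1055. Of all genes tested, 60 were higher and 127 lower in replicate 2, against 97 and 84 with TMM, 94 and 88 with DESeq2 factors, 95 and 85 with all reads, 78 and 101 without erythroid genes and 71 and 87 with strand ignored. Mir126b, at 2 counts a library, had too few counts to be tested, and its CPM is known only within a wide interval. No paired analysis was possible because the labels give a single group.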
